A study of Mus musculus with 12 samples.

Results

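Remaining basal cells are the keratinocytes that were left when mouse back skin epidermis was sorted for integrin alpha 6 (Itga6) and the cells with CD34 or with red fluorescence from a Gata6 reporter were set aside. They were measured on 3 of the 12 arrays of the study. The other 9 arrays held, with 3 each, cells with CD34 and Itga6 (CD34+ cells), reporter-positive cells with Itga6 (Gata6+Itga6+ cells) and reporter-positive cells without Itga6 (Gata6+Itga6− cells). All 12 came from female Gata6-mtomato reporter mice on a C57BL6/CBA background, matched for age, at telogen, when follicles rest. The labels give no age in days, no treatment and no second allele. The members described here are the genes that differed in the same direction from each of the 3 other populations: 83 of 17853 genes, 33 higher and 50 lower in remaining basal cells.

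Basal keratinocytes touch the basement membrane through integrins and hemidesmosomes, divide, and supply the layers above. In the interfollicular epidermis they renew the skin surface, whereas the bulge holds the stem cells that rebuild the hair follicle, and the upper follicle with its junctional zone joins follicle, sebaceous gland and surface. The sort took every Itga6+ cell without CD34 or reporter signal, so the population is defined by what it lacked, and interfollicular cells were not separated from other basal cells of that kind. The comparison asks which genes set these cells apart from follicle populations. These are bulk samples, in which fewer cells of a type and less RNA per cell cannot be told apart.

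A level is the log2 of the deposited intensity plus 1, as the median over the exon probe sets of a gene, and levels of different genes are not compared. The scale of the deposited values was not stated and was read as linear. Genes of olfactory and vomeronasal receptors, which skin is not thought to use, gave the level of silent genes, 2.42, the 95th percentile of 1144 such genes. Where the lower mean lay under it, a fold is taken against it and written as at least. A gene was called where the Benjamini-Hochberg adjusted p of a limma model over all 17853 genes was under 0.05. Unless said otherwise, differences are log2 differences of remaining basal cells from the mean of the other 3 population means, with the standard error (SE) of the model. Means are given ± SD over 3 arrays, and arrays are numbered within a population by replicate.

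Array brightness moved in part with the population. The upper quartile of intensity was 12.1, 12.4 and 15.96 on the remaining basal arrays and 13.2 to 17.6 on the other 9, so remaining basal arrays 1 and 2 were the dimmest of all. Remaining basal arrays correlated with each other at r = 0.935 to 0.939 over genes, and with arrays of other populations at 0.851 to 0.941, so by this measure they did not stand apart from all others. The labels call the replicates biological without saying whether they came from separate animals, and p-values measure only the spread between these arrays.

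The genes of the sort followed the gates. Cd34 was at 1.48, 1.79 and 1.70 in remaining basal cells. The other arrays gave 7.94, 7.92 and 7.98 (CD34+), 1.83, 1.94 and 1.55 (Gata6+Itga6+) and 2.11, 1.75 and 2.02 (Gata6+Itga6−). Gata6 was at 2.74, 2.38 and 3.07 in remaining basal cells. Levels in CD34+ cells were 2.61, 3.17 and 2.75, those in Gata6+Itga6+ cells 4.79, 4.21 and 4.18 and those in Gata6+Itga6− cells 5.84, 5.89 and 5.80. The remaining basal arrays overlapped those of both Gata6+ populations in Cd34 and those of CD34+ cells in Gata6. Itga6 averaged 7.67 ± 0.44 in remaining basal cells, against 6.76 ± 0.40 (CD34+), 7.28 ± 0.13 (Gata6+Itga6+) and 6.02 ± 0.31 (Gata6+Itga6−), and its difference was 0.98, SE 0.21, limma adjusted p = 0.0292. The call was lost without remaining basal array 2 or 3, CD34+ array 2, Gata6+Itga6+ array 1 or 3 or Gata6+Itga6− array 1 or 3 (limma adjusted p = 0.0816, 0.0981, 0.0519, 0.0550, 0.0524, 0.0521 and 0.0571). Since cells were sorted on these genes, this checks the labels only.

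Against markers of the interfollicular basal layer, remaining basal cells showed a basal keratinocyte profile that was largely shared with the other Itga6+ populations. Of 15 such genes, 4 (Krt5, Ly6a, Mt2 and the Notch ligand Jag2, whose call depended on single arrays as given below) were called higher and 0 lower against the mean of the others, where 1.31% and 2.38% of all genes were called, and the median difference of the list was 0.57 against −0.03 over all genes. None of the 15 differed from each of the other populations, where 0.185% of all genes were higher and 0.280% lower. Higher than in Gata6+Itga6− cells were 12, than in CD34+ cells 1 and than in Gata6+Itga6+ cells 0. Of all genes, 2.15%, 1.67% and 0.286% were. Against Gata6+Itga6+ and CD34+ cells so few genes were called that 0 and 1 of 15 say little about these markers. The median difference of the list was 1.86 from Gata6+Itga6− cells, 0.08 from CD34+ cells and 0.14 from Gata6+Itga6+ cells. The population is called here by its gate.

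Krt5, a basal keratin, was at 9.56, 9.33 and 9.75 in remaining basal cells. Among the others, CD34+ cells were at 9.29, 9.58 and 9.53, Gata6+Itga6+ cells at 9.12, 9.14 and 9.24 and Gata6+Itga6− cells at 6.72, 6.96 and 6.34. Its call (1.11, SE 0.14, limma adjusted p = 0.00120) went with the low level in Gata6+Itga6− cells. The remaining basal and CD34+ arrays overlapped, and the Gata6+Itga6+ arrays lay just below both. Ly6a, which encodes the surface antigen Sca-1 of interfollicular and infundibular keratinocytes in mouse, was at 5.30, 5.42 and 6.42 in remaining basal cells. The CD34+ arrays read 1.56, 2.65 and 1.61, the Gata6+Itga6+ arrays 4.73, 4.51 and 4.57 and the Gata6+Itga6− arrays 1.75, 2.47 and 1.41. It was highest in all 3 remaining basal arrays, with a difference of 2.91, SE 0.31, limma adjusted p = 0.000479, but was not called against Gata6+Itga6+ cells (limma adjusted p = 0.274). Mt2, a metallothionein, averaged 7.66 ± 0.26 in remaining basal cells, against 6.75 ± 0.27 (CD34+), 6.56 ± 0.40 (Gata6+Itga6+) and 2.10 ± 0.30 (Gata6+Itga6−), with a difference of 2.52, SE 0.19, limma adjusted p = 5.28e-05, and again no array of another population reached the lowest remaining basal array. Krt14, a basal keratin, Trp63, a master regulator of stratified epithelium, and the integrins Itgb1 and Itgb4 were not called, with differences of 0.35, 0.57, 0.76 and 0.50 and limma adjusted p of 0.0892, 0.340, 0.296 and 0.456. Thbs1, Slc1a3 and Dlx1, further genes of the list, were not called either, and Slc1a3 and Dlx1 lay under the level of silent genes in remaining basal cells.

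**Figure D1:**
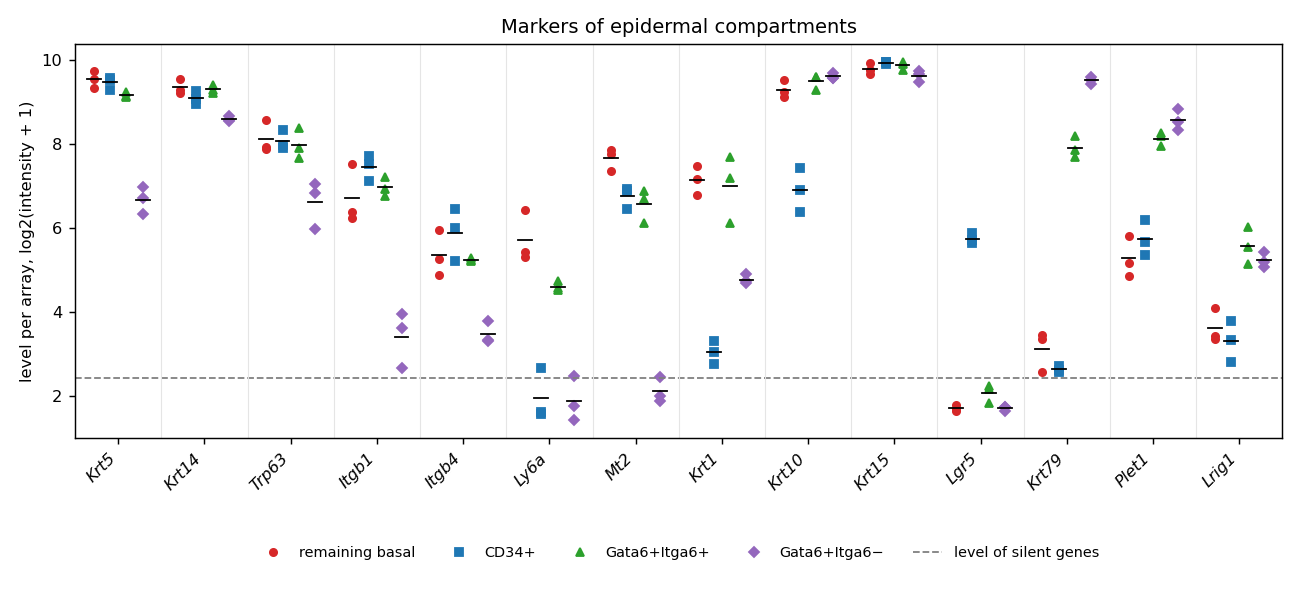
Level per array of marker genes, log2(intensity + 1), for remaining basal cells and then the 3 other populations, with bars at the means of 3 arrays and the level of silent genes (2.42) dashed. Ly6a and Mt2 were highest in the remaining basal arrays, Lgr5 was high in CD34+ arrays alone, and Krt79 and Plet1 were highest in both Gata6+ populations.

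Markers of differentiation were divided. Krt1, an early suprabasal keratin, was at 6.79, 7.17 and 7.47 in remaining basal cells. For comparison, CD34+ arrays stood at 3.30, 3.04 and 2.75, Gata6+Itga6+ arrays at 7.69, 7.19 and 6.12 and Gata6+Itga6− arrays at 4.67, 4.73 and 4.90. All remaining basal arrays lay above all CD34+ and Gata6+Itga6− arrays and within the range of the Gata6+Itga6+ arrays, and the difference was 2.21, SE 0.28, limma adjusted p = 0.00141. Krt10, its suprabasal partner, averaged 9.30 ± 0.20 in remaining basal cells, against 6.90 ± 0.52 (CD34+), 9.50 ± 0.18 (Gata6+Itga6+) and 9.61 ± 0.069 (Gata6+Itga6−) and was not called (difference 0.63, limma adjusted p = 0.114). Of 23 spinous and granular genes, 2 were called higher and 7 lower against the mean of the others (all genes: 1.31% and 2.38%). The median difference of the list was −0.44. The higher ones were Krt1 and Tgm3, a transglutaminase (call lost without remaining basal array 2, limma adjusted p = 0.0529). The lower ones were the envelope precursor Ivl, the desmosomal cadherin Dsc1, the protease Klk7, the transcription factor Grhl3, the transglutaminase Tgm1 (lost without remaining basal array 1 or 2, limma adjusted p = 0.0606 and 0.102), Sbsn and Calml3. The summed intensity of all 23 was 1253 to 1742 in remaining basal arrays, against 625 to 923 in CD34+, 1966 to 2565 in Gata6+Itga6+ and 3458 to 3690 in Gata6+Itga6− arrays, so the remaining basal range lay below both Gata6+ ranges and above the CD34+ range.

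Markers of the bulge were low mainly against CD34+ cells, and those of the upper follicle against both Gata6+ populations. Of 24 bulge genes, 10 were called lower and 1, Bmp4, higher against the mean of the others (all genes: 2.38% and 1.31%). The median difference of the list was −1.11. It was −2.68 from CD34+ cells, −0.285 from Gata6+Itga6+ cells and −0.105 from Gata6+Itga6− cells. Lower than in CD34+ cells were 20, than in Gata6+Itga6+ cells 5 and than in Gata6+Itga6− cells 6. Of all genes, 3.32%, 1.07% and 2.96% were. Higher were 1, 1 and 4 in the same order, where 1.67%, 0.286% and 2.15% of all genes were. The bulge genes Lgr5, a receptor of follicle stem cells, and Krt24, a keratin, had means of 1.70 and 1.80 in remaining basal cells, under the level of silent genes, as in both Gata6+ populations, and of 5.74 and 8.73 in CD34+ cells. Krt15, a keratin often used to mark the bulge, was not called (difference −0.04, limma adjusted p = 0.920) and was at 9.48 to 9.96 on all 12 arrays. The 11 genes of the upper follicle and junctional zone had a median difference of −1.73. Of these, 0 were called higher and 7 lower (all genes: 1.31% and 2.38%). They were the keratins Krt79 and Krt17, the defensin Defb6, the protease inhibitor Cst6, the surface protein Plet1, the receptor regulator Lrig1 and the proton pump subunit Atp6v1c2. Krt79 averaged 3.12 ± 0.48 in remaining basal cells, against 2.63 ± 0.065 (CD34+), 7.91 ± 0.26 (Gata6+Itga6+) and 9.52 ± 0.089 (Gata6+Itga6−). Of these 11 genes, 8 were lower than in Gata6+Itga6+ cells, 7 than in Gata6+Itga6− cells and 0 than in CD34+ cells. Of all genes, 1.07%, 2.96% and 3.32% were. The call of Lrig1 (limma adjusted p = 0.0402) was lost without 9 of the 12 arrays, each left out in turn, with adjusted p of 0.0523 to 0.196; the arrays were remaining basal array 1 or 2, CD34+ array 1 or 3, Gata6+Itga6+ array 2 or 3 or Gata6+Itga6− array 1, 2 or 3. That of Atp6v1c2 was lost without remaining basal array 2 (limma adjusted p = 0.0595).

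Markers of other skin cells gave few calls against the mean of the others, where 1.31% of all genes were higher and 2.38% lower. The summed intensity of some lists still differed between populations. Of 13 measured T cell genes, 12 lay under the level of silent genes in remaining basal cells, including Cd3e (2.20) and Ptprc (1.47), 0 were called, and their summed intensity was 37.5 to 64.3 in remaining basal arrays, against 29.8 to 38.97 in CD34+, 31.7 to 34.9 in Gata6+Itga6+ and 37.4 to 56.5 in Gata6+Itga6− arrays. The exception, Thy1, was at 5.10, 3.36 and 3.19 in remaining basal cells. The values were 2.20, 2.02 and 3.41 for CD34+ cells, 2.08, 1.89 and 2.14 for Gata6+Itga6+ cells and 2.87, 2.40 and 2.03 for Gata6+Itga6− cells. It was not called (limma adjusted p = 0.0787); remaining basal array 1 was the highest and CD34+ array 3 overlapped the other 2. Of 16 genes of Langerhans cells and antigen presentation, 13 lay under the level of silent genes, Cd207 at 1.85 among them, and 1, the epithelial adhesion molecule Epcam, was called lower. The sum of this list was 49.2 to 59.8 in remaining basal arrays, 58.1 to 74.1 in CD34+, 64.2 to 122.4 in Gata6+Itga6+ and 160.3 to 179 in Gata6+Itga6− arrays. Of 14 dermal fibroblast genes, 12 lay under the level of silent genes, Col1a1, Col3a1 and Dcn included, with Fn1 called higher and Col6a1 and Col6a2 lower. Their sum was 66.0 to 100.8 in remaining basal arrays, 435.4 to 516.5 in CD34+, 45.8 to 46.4 in Gata6+Itga6+ and 45.6 to 47.3 in Gata6+Itga6− arrays. The call of Fn1 was lost without any single array other than CD34+ array 3 and Gata6+Itga6− array 2 (limma adjusted p of 0.0524 to 0.123), and that of Col6a2 without remaining basal array 1 (limma adjusted p = 0.0687). Melanocyte markers had 1 of 9 called, the transcription factor Mitf, lower, with Dct at 1.504. Their sum was 27.9 to 30.3 in remaining basal arrays, 77.3 to 83.1 in CD34+, 35.4 to 40.15 in Gata6+Itga6+ and 32.4 to 40.6 in Gata6+Itga6− arrays. No gene was called of 8 Merkel cell, 10 endothelial and 2 erythrocyte markers.

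Set against the mean of the other populations, remaining basal cells differed in 659 genes (3.69% of all), 234 higher (1.31%) and 425 lower (2.38%), so 35.5% of the calls were higher. This share was 49.8% after a further quantile normalization (437 higher, 440 lower) and 52.6% with array brightness as a covariate (310 higher, 279 lower), a setting chosen after the data were seen. Against single populations, 299 genes were higher (1.67%) and 593 lower (3.32%) than in CD34+ cells (5% in all), 51 higher (0.286%) and 191 lower (1.07%) than in Gata6+Itga6+ cells (1.36% in all), and 384 higher (2.15%) and 529 lower (2.96%) than in Gata6+Itga6− cells (5.11%). These comparisons share the 3 remaining basal arrays.

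Called in the same direction against each of the others were 33 higher genes (0.185%) and 50 lower genes (0.280%). All 3 remaining basal arrays lay above all 9 other arrays for the 33 and below them for the 50, where 1.17% and 1.64% of all genes did so; the calls of the same arrays chose the genes, so this describes them. Each array name holds 1 of 3 letters, with 1 array of every population under each. For all 83 genes the remaining basal array had the same sign against the other populations within every letter. This follows from the lack of overlap and adds no support. Of the 33, 28 were next highest in Gata6+Itga6+ cells, 4 in CD34+ cells and 1 in Gata6+Itga6− cells. Of the 50, 20 were next lowest in Gata6+Itga6− cells, 18 in CD34+ cells and 12 in Gata6+Itga6+ cells. The same order was not counted over all genes, so these counts are not shown to be particular to the called genes. The log2 difference from every other population was at least 1 for 24 of the higher and 47 of the lower genes. When each array was left out in turn, 18 of the 33 and 29 of the 50 kept their calls in all 12 fits. The counts came to 37 higher and 31 lower without remaining basal array 1, 30 and 33 without array 2, and 30 and 86 without array 3, and to 22 higher without Gata6+Itga6+ array 1 or 3. With array brightness as a covariate they were 32 and 32, with 22 and 32 of the genes shared. Quantile normalization gave 88 higher and 51 lower genes (33 and 43 shared), so that 63.3% were higher, against 39.8% as reported. The brightest probe set gave 12 and 69 (4 and 24 shared), the mean of probe sets 73 and 95 (28 and 48 shared), and separate fits of 2 populations 7 and 36 (7 and 34 shared).

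Receptors of cytokines led the genes that were higher than in each other population. Il1r2, the decoy receptor that binds interleukin 1 without signalling, was at 6.37, 6.15 and 7.18 in remaining basal cells. Outside this population it read 1.55, 1.53 and 2.19 (CD34+), 2.72, 3.46 and 1.77 (Gata6+Itga6+) and 1.89, 1.44 and 1.60 (Gata6+Itga6−). All 3 remaining basal arrays lay far above the other 9, the nearest being Gata6+Itga6+ array 2. Il1r2 was 15.1-fold higher than in the nearest population, Gata6+Itga6+ cells, with a difference of 4.55, SE 0.33, limma adjusted p = 3.65e-05, and all 8 of its probe sets were higher than in each other population. Il12rb2, the signalling chain of the interleukin 12 receptor, was at 5.59, 5.38 and 6.57 in remaining basal cells. CD34+ cells had 1.74, 2.11 and 1.66, Gata6+Itga6+ cells 2.77, 2.90 and 2.06 and Gata6+Itga6− cells 2.55, 1.93 and 1.87. Here too the groups did not overlap, and all 19 probe sets were higher. The smallest fold was 9.63, against Gata6+Itga6+ cells, and the difference 3.67, SE 0.27, limma adjusted p = 4.38e-05. Il20ra, a receptor chain for cytokines of the interleukin 20 group, was at 5.25, 5.53 and 6.18 in remaining basal cells. The other arrays gave 2.24, 1.89 and 1.77 (CD34+), 2.87, 4.07 and 2.54 (Gata6+Itga6+) and 1.99, 1.68 and 1.92 (Gata6+Itga6−). Gata6+Itga6+ array 2 came closest, and the fold over Gata6+Itga6+ cells was 5.62 (3.32, SE 0.30, limma adjusted p = 0.000146).

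Il2rg, the gamma chain shared by several interleukin receptors, was at 3.65, 4.12 and 3.82 in remaining basal cells. Levels in CD34+ cells were 1.59, 2.20 and 1.62, those in Gata6+Itga6+ cells 2.35, 2.15 and 2.19 and those in Gata6+Itga6− cells 2.05, 1.77 and 2.51. Il2rg was at least 2.71-fold higher than in each other population (1.82, SE 0.18, limma adjusted p = 0.000268), and no other array reached the lowest remaining basal one. The calls of Il12rb2, Il20ra and Il2rg against the mean of the others did not hold when the brightest probe set alone stood for each gene (limma adjusted p = 0.162, 0.183 and 0.450), whereas that of Il1r2 did. Of 27 cytokine receptor genes, 6 were called higher and 2 lower against the mean of the others (all genes: 1.31% and 2.38%). The median difference of the list was 0.05. Besides Il12rb2, Il20ra and Il2rg, Il6ra, Il13ra1 and Ifngr1, receptor chains for interleukin 6, interleukin 13 and interferon gamma, were higher, and Il22ra1 and Il31ra, chains for interleukins 22 and 31, were lower. Higher than in CD34+ cells were 6 of the 27, than in Gata6+Itga6+ cells 3 and than in Gata6+Itga6− cells 7. Of all genes, 1.67%, 0.286% and 2.15% were. Lower were 1, 0 and 2 in the same order, where 3.32%, 1.07% and 2.96% of all genes were. Ifngr1 averaged 5.87 ± 0.67 in remaining basal cells, against 2.87 ± 0.32 (CD34+), 5.42 ± 0.42 (Gata6+Itga6+) and 3.92 ± 0.35 (Gata6+Itga6−) (1.80, SE 0.28, limma adjusted p = 0.00485). The call of Il6ra was lost without remaining basal array 1 or 3 (limma adjusted p = 0.0825 and 0.0551), that of Il13ra1 without remaining basal array 1 or 3, Gata6+Itga6+ array 1 or 3 or Gata6+Itga6− array 1 or 3 (limma adjusted p = 0.0813, 0.0995, 0.0525, 0.0524, 0.0521 and 0.0541), and that of Il22ra1 without remaining basal array 1 or 2, Gata6+Itga6+ array 1 or 3 or Gata6+Itga6− array 2 or 3 (limma adjusted p = 0.131, 0.158, 0.0530, 0.0524, 0.0514 and 0.0541). Some of these receptors are also used by lymphocytes. The measured T cell markers other than Thy1 lay under the level of silent genes in remaining basal cells, as given above. The T cell genes Il2rb, Lck and Trdc were not analysed. The summed intensity of the T cell list was 37.5 to 64.3 in remaining basal arrays and 37.4 to 56.5 in Gata6+Itga6− arrays. It was 29.8 to 38.97 in CD34+ and 31.7 to 34.9 in Gata6+Itga6+ arrays. Whether lymphocyte RNA had a part in the receptor differences was not tested.

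Of 17 genes of the interleukin 1 family and its receptors, Il1r2 and Il1f9 were higher, also than in each other population. Il18r1 was lower, and the median difference of the list was 0.12. Against the mean of the others, 1.31% of all genes were higher and 2.38% lower. Il1f9, listed under its older symbol and encoding interleukin 36 gamma, was at 2.43, 3.50 and 3.63 in remaining basal cells. Among the others, CD34+ cells were at 1.57, 1.48 and 1.55, Gata6+Itga6+ cells at 1.60, 1.80 and 1.98 and Gata6+Itga6− cells at 1.87, 1.55 and 1.70. Its fold was at least 1.70 and its difference 1.51, SE 0.22, limma adjusted p = 0.00306. The call against each population was lost without any single array other than remaining basal array 1, with a largest limma adjusted p of 0.05001 to 0.139 in those 11 fits.

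Bmp4, a bone morphogenetic protein that holds follicle stem cells at rest, was at 4.83, 3.93 and 5.45 in remaining basal cells. The CD34+ arrays read 1.79, 1.54 and 1.57, the Gata6+Itga6+ arrays 2.40, 2.15 and 2.26 and the Gata6+Itga6− arrays 1.61, 1.45 and 1.55. Against each other population Bmp4 was at least 4.97-fold higher, with no overlap and a difference of 2.92, SE 0.24, limma adjusted p = 8.47e-05; with the brightest probe set it was not called (limma adjusted p = 0.723). Of 29 BMP and TGF-beta genes, 2 were higher and 5 lower against the mean of the others (all genes: 1.31% and 2.38%). The median difference of the list was −0.14. Tgfbr3, a co-receptor, was the other higher one. The lower ones were Id2, a target of BMP signals, the antagonists Grem1 and Fst, and the TGF-beta binding proteins Ltbp1 and Ltbp2. The call of Tgfbr3 was lost without any single array other than CD34+ array 3 and remaining basal array 2 (limma adjusted p of 0.0744 to 0.153 in those 10 fits), that of Id2 without remaining basal array 1, 2 or 3, CD34+ array 2 or 3 or Gata6+Itga6+ array 1 or 2 (limma adjusted p = 0.171, 0.107, 0.0665, 0.0585, 0.0566, 0.0507 and 0.0640), and that of Ltbp1 without remaining basal array 1, 2 or 3 or Gata6+Itga6− array 2 (limma adjusted p = 0.0815, 0.0911, 0.0945 and 0.0504).

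Epgn, which encodes the epidermal growth factor receptor ligand epigen, was at 3.25, 3.10 and 2.85 in remaining basal cells. For comparison, CD34+ arrays stood at 1.71, 1.70 and 1.73, Gata6+Itga6+ arrays at 2.23, 1.67 and 1.78 and Gata6+Itga6− arrays at 1.94, 1.53 and 1.78. Epigen message was at least 1.56-fold higher, without overlap (1.28, SE 0.14, limma adjusted p = 0.000449). Its brightest probe set alone gave 0.53 and it was not called (limma adjusted p = 0.527). Wnt5a, a Wnt ligand, averaged 2.38 ± 0.087 in remaining basal cells, against 1.62 ± 0.14 (CD34+), 1.76 ± 0.075 (Gata6+Itga6+) and 1.54 ± 0.056 (Gata6+Itga6−) and was higher than in each population (0.74, SE 0.08, limma adjusted p = 0.000541), but each of its means was below 2.42 and no fold is given; the call against each was lost without Gata6+Itga6+ array 1 or 3 (limma adjusted p = 0.0509 and 0.0588). Of 29 Wnt ligands, receptors and targets, 4 were higher (Wnt3, Wnt5a, Wnt10a and the co-receptor Lrp4). The 3 lower were the receptors Fzd3 and Fzd7 and the co-receptor Lrp6, and the median difference of the list was 0.09. Of all genes, 1.31% were higher and 2.38% lower against the mean of the others. Lrp4 was at 5.62, 5.54 and 5.59 in remaining basal cells. The values were 3.59, 3.17 and 3.04 for CD34+ cells, 4.44, 5.15 and 4.75 for Gata6+Itga6+ cells and 3.22, 3.42 and 3.31 for Gata6+Itga6− cells. The remaining basal arrays were the highest, Gata6+Itga6+ arrays next, and the difference was 1.80, SE 0.15, limma adjusted p = 9.06e-05. Fzd7 was lower than in each other population, with means of 3.36 ± 0.22 in remaining basal cells, against 4.42 ± 0.18 (CD34+), 4.56 ± 0.36 (Gata6+Itga6+) and 4.68 ± 0.25 (Gata6+Itga6−), a fold of 2.08 and a difference of −1.19, SE 0.16, limma adjusted p = 0.00243; this call was lost without remaining basal array 1 or CD34+ array 3 (limma adjusted p = 0.0734 and 0.0517). The call of Wnt3 against the mean was lost without remaining basal array 1 (limma adjusted p = 0.0515), that of Wnt10a without remaining basal array 1, 2 or 3 (limma adjusted p = 0.0815, 0.0714 and 0.0661), and that of Lrp6 without remaining basal array 1 or 2, CD34+ array 1 or 3, Gata6+Itga6+ array 2 or 3 or Gata6+Itga6− array 1, 2 or 3 (limma adjusted p of 0.0517 to 0.163). Axin2, a Wnt target, was not called (difference 0.76, limma adjusted p = 0.0501), and of 13 secreted Wnt inhibitors 0 were called in either direction.

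The remaining leading genes served several roles. Ndufa4l2, a mitochondrial protein induced by low oxygen, was at 5.57, 5.44 and 4.86 in remaining basal cells. Outside this population it read 2.39, 1.93 and 3.18 (CD34+), 2.89, 2.79 and 2.16 (Gata6+Itga6+) and 2.10, 1.82 and 2.07 (Gata6+Itga6−). It was 6.39-fold higher than in the nearest population (2.92, SE 0.26, limma adjusted p = 0.000146), without overlap. Of 28 genes of hypoxia and glycolysis it was the single one called higher. Hk2, a hexokinase, was lower (lost without remaining basal array 1 or 2, limma adjusted p = 0.0725 and 0.101). The median difference of the list was 0.02. Against the mean of the others, 1.31% of all genes were higher and 2.38% lower. Phldb2, a cytoplasmic protein that helps anchor microtubules near the basement membrane, was at 4.67, 5.23 and 5.85 in remaining basal cells. CD34+ cells had 1.88, 1.89 and 2.54, Gata6+Itga6+ cells 2.24, 3.07 and 2.84 and Gata6+Itga6− cells 1.86, 2.09 and 1.76. All 21 of its probe sets were higher than in each other population, and the smallest fold was 5.80 (3.01, SE 0.25, limma adjusted p = 9.56e-05).

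Robo1, a receptor for Slit guidance proteins, was at 4.90, 5.78 and 5.91 in remaining basal cells. The other arrays gave 1.90, 1.97 and 1.91 (CD34+), 2.85, 3.58 and 2.89 (Gata6+Itga6+) and 1.85, 1.67 and 1.82 (Gata6+Itga6−). Its 24 probe sets were all higher than in each other population, with a smallest fold of 5.37 and a difference of 3.26, SE 0.21, limma adjusted p = 1.85e-05. Rab27a, a small GTPase of vesicle transport known from the movement of melanosomes, was at 5.88, 6.24 and 6.46 in remaining basal cells. Levels in CD34+ cells were 2.23, 2.11 and 1.87, those in Gata6+Itga6+ cells 3.73, 3.86 and 3.89 and those in Gata6+Itga6− cells 2.69, 2.99 and 2.80. It was 5.16-fold higher than in Gata6+Itga6+ cells (3.28, SE 0.13, limma adjusted p = 9.51e-07), which had the next highest arrays. In both genes the order of the populations was remaining basal, then Gata6+Itga6+, with CD34+ and Gata6+Itga6− arrays lowest.

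Sox6, a transcription factor of the Sox family, was 2.68-fold higher (1.91, SE 0.15, limma adjusted p = 5.41e-05), and the Golgi mannosidase Man1c1 2.67-fold higher (1.85, SE 0.16, limma adjusted p = 0.000116). For both genes the remaining basal arrays lay above all others. For Sox6 the brightest probe set gave a difference of 0.12 and it was not called (limma adjusted p = 0.883). Satb1, an organizer of chromatin, was at 5.23, 5.23 and 6.07 in remaining basal cells. Among the others, CD34+ cells were at 2.56, 2.76 and 3.31, Gata6+Itga6+ cells at 3.75, 4.54 and 3.87 and Gata6+Itga6− cells at 2.09, 2.47 and 2.09. The gene was 2.75-fold higher than in Gata6+Itga6+ cells (2.46, SE 0.24, limma adjusted p = 0.000258). Its call against each was lost in 10 of 12 fits that left out an array, with a largest limma adjusted p of 0.0533 to 0.162; it held without CD34+ array 3 or Gata6+Itga6+ array 2. Against the mean of the others Satb1 was not called with the brightest probe set (2.28, limma adjusted p = 0.0881). Gabrp, the pi subunit of the GABA-A receptor, was at 5.60, 5.66 and 6.11 in remaining basal cells. The CD34+ arrays read 1.62, 2.15 and 1.46, the Gata6+Itga6+ arrays 4.15, 4.75 and 3.30 and the Gata6+Itga6− arrays 1.72, 1.72 and 1.91. The fold was 3.31 over Gata6+Itga6+ cells (3.26, SE 0.26, limma adjusted p = 7.50e-05). Its call was lost in 8 of 12 such fits, without remaining basal array 1, 2 or 3, Gata6+Itga6+ array 1 or 3 or Gata6+Itga6− array 1, 2 or 3 (0.05001 to 0.0925). Cpxm2, a protein of the carboxypeptidase family, was 2.76-fold higher (2.16, SE 0.21, limma adjusted p = 0.000275), a call lost without remaining basal array 1 or Gata6+Itga6+ array 2 or 3 (limma adjusted p = 0.0520, 0.0558 and 0.0887).

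Other genes of the 33, picked after their values were seen, were Adh1, an alcohol dehydrogenase (1.26, SE 0.13, limma adjusted p = 0.000432), the cadherin Cdh4 (1.09, SE 0.13, limma adjusted p = 0.000887), the prostaglandin transporter Slco2a1 (2.37, SE 0.18, limma adjusted p = 5.28e-05), and Irf4, a transcription factor best known from lymphocytes (1.29, SE 0.16, limma adjusted p = 0.00143). Slco2a1 averaged 6.92 ± 0.38 in remaining basal cells, against 5.21 ± 0.18 (CD34+), 5.71 ± 0.38 (Gata6+Itga6+) and 2.73 ± 0.12 (Gata6+Itga6−), and its call against each was lost without remaining basal array 2 or 3 or Gata6+Itga6+ array 1 or 2 (limma adjusted p = 0.0911, 0.0516, 0.1 and 0.0910). Irf4 averaged 2.91 ± 0.50 in remaining basal cells, against 1.55 ± 0.076 (CD34+), 1.71 ± 0.082 (Gata6+Itga6+) and 1.59 ± 0.044 (Gata6+Itga6−), and its call was lost without remaining basal array 2 or Gata6+Itga6+ array 1, 2 or 3 (limma adjusted p = 0.0720, 0.0651, 0.0586 and 0.0534). With the brightest probe set Adh1 (1.21, limma adjusted p = 0.128) and Cdh4 (−0.018, limma adjusted p = 0.987) were not called against the mean of the others. For 14 of the 33 genes every other population lay under the level of silent genes, so that at most a bound can be given. For 3 of them, Wnt5a, Npr3 and Reep1, the remaining basal mean was also under that level, and no fold is given.

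**Figure D2:**
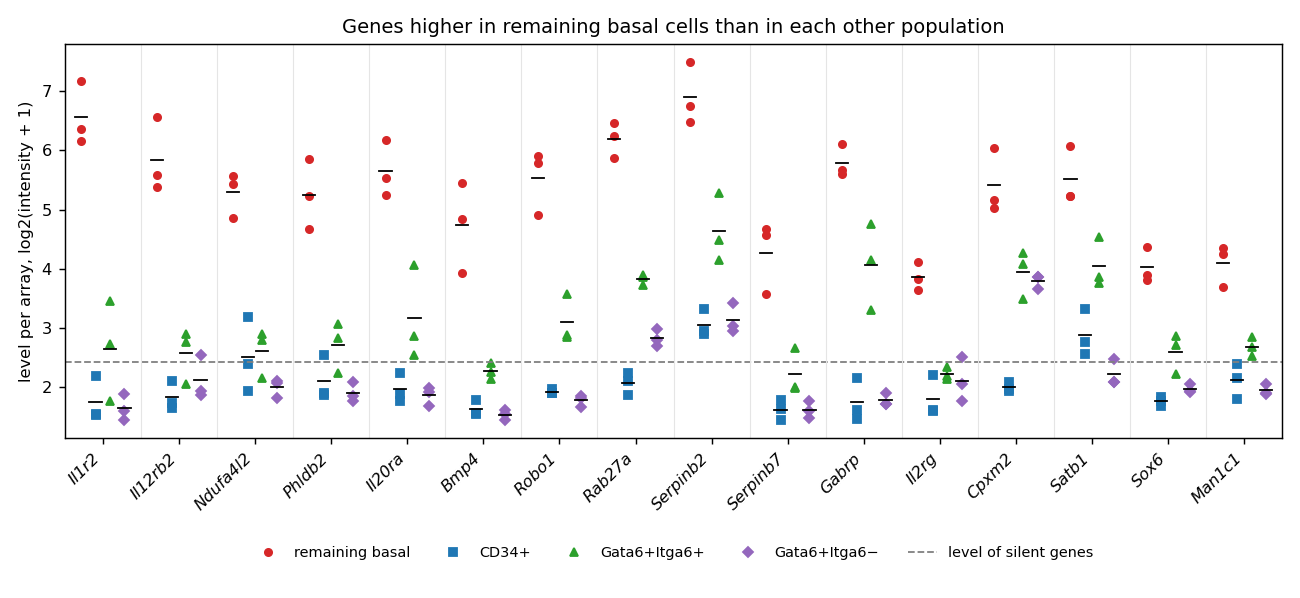
Level per array, log2(intensity + 1), of the 16 leading genes that were higher in remaining basal cells than in each other population, with bars at the means of 3 arrays and the level of silent genes (2.42) dashed. In each gene the 3 remaining basal arrays lie above the 9 others, and the Gata6+Itga6+ mean is next.

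A pair of leading genes lie close together on chromosome 1 and encode serine protease inhibitors of the same clade. Serpinb2, plasminogen activator inhibitor 2, was at 6.48, 6.75 and 7.49 in remaining basal cells. For comparison, CD34+ arrays stood at 2.90, 3.32 and 2.95, Gata6+Itga6+ arrays at 4.48, 5.28 and 4.15 and Gata6+Itga6− arrays at 3.42, 2.95 and 3.03. It was 4.82-fold higher than in Gata6+Itga6+ cells (3.30, SE 0.26, limma adjusted p = 6.26e-05). Serpinb7, an inhibitor made in the epidermis, was at 3.57, 4.67 and 4.57 in remaining basal cells. The values were 1.45, 1.78 and 1.63 for CD34+ cells, 2.66, 2.00 and 1.99 for Gata6+Itga6+ cells and 1.60, 1.48 and 1.76 for Gata6+Itga6− cells. Serpinb7 was at least 3.60-fold higher than in each other population (2.45, SE 0.23, limma adjusted p = 0.000203), and for both genes the remaining basal arrays did not overlap the others. With the brightest probe set Serpinb7 was not called (limma adjusted p = 0.719) and Serpinb2 was.

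The bases before the start of these genes were searched for short motifs. Shown are the 250 bases before the start, from the promoter table of RefSeq on GRCm38.p6, of those of the 16 leading higher genes that held the AP-1 letters TGANTCA, and of Cd200, the leading lower gene, each 5′ to 3′ on the strand of its gene with motif matches in capitals.
Il20ra (chr10:19712337-19712586, plus strand): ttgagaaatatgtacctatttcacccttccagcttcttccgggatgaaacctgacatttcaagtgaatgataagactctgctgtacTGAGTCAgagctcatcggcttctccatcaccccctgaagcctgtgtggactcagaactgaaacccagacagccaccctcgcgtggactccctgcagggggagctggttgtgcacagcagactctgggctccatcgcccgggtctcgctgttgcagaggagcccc
Serpinb2 (chr1:107511173-107511422, plus strand): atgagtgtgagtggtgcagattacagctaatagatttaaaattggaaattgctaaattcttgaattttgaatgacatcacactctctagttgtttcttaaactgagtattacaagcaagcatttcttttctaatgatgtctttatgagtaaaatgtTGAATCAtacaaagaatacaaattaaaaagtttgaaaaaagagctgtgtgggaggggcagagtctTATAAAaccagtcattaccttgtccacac
Serpinb7 (chr1:107422439-107422688, plus strand): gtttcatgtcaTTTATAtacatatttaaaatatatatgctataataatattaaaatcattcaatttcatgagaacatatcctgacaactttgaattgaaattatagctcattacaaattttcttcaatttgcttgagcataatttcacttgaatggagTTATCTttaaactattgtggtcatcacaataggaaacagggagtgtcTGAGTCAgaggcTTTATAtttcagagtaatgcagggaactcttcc
Cd200 (chr16:45409054-45409303, minus strand): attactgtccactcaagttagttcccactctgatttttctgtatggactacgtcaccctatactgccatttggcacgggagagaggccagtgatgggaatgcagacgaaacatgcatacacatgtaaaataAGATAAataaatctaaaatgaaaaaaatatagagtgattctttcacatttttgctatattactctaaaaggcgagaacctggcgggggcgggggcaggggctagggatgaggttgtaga
The AP-1 letters, bound by Fos and Jun proteins, began 164 bases before the start in Il20ra, 94 in Serpinb2 and 45 in Serpinb7. Serpinb2 also held TATAAA 29 bases before the start, and Serpinb7 held it in reverse 239 and 33 bases before, with AGATAA in reverse 92 bases before. Cd200 held AGATAA 119 bases before its start. Serpinb2 had 2 windows in the table, of which the first is shown.

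Windows were in the table for 30 of the 33 higher and 41 of the 50 lower genes, and for 14364 genes of the array. Each motif was searched on both strands, and matches of different motifs were counted apart. The AP-1 letters TGANTCA stood in 4 of the 30 higher genes (13.3%) and 4 of the 41 lower genes (9.76%), against 6.04% of all windows. The higher ones were Il20ra, Serpinb2, Serpinb7 and Chit1, which encodes a chitinase and whose window is not shown. The GATA letters AGATAA stood in 6 higher (20%) and 2 lower genes (4.88%), against 8.42%, and the TATA letters TATAAA in 6 (20%) and 3 (7.32%), against 11.1%. The letters GGAAAA, read by NFAT proteins, stood in 3 higher and 7 lower genes (17.1%), against 19.6%. ATCAAAG, read by TCF and LEF proteins, stood in 1 higher and 0 lower genes, against 2.77%, and TAATTA, read by homeodomain proteins, in 0 and 0, against 4.04%. These are counts of letters in a window and no test was made of them.

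Immediate early genes can also be induced by tissue digestion. Of 22 such genes, 7 were higher against the mean of the others (Fos, Junb, Jund, Atf3, Nr4a1, Dusp1 and Zfp36). The zinc finger gene Egr2 was the 1 lower gene, and the median difference was 0.51. Of all genes, 1.31% were higher and 2.38% lower against the mean. None of the 22 was called against each. Called higher than in Gata6+Itga6+ cells were 0, than in CD34+ cells 7 and than in Gata6+Itga6− cells 5. Of all genes, 0.286%, 1.67% and 2.15% were. Called lower were 1, 1 and 1 in the same order, where 1.07%, 3.32% and 2.96% of all genes were. The summed intensity of the list was 792 to 1340 in remaining basal arrays, against 457 to 588 in CD34+, 879 to 1244 in Gata6+Itga6+ and 899 to 1138 in Gata6+Itga6− arrays, so it overlapped both Gata6+ ranges. Fos, a subunit of AP-1, was at 5.39, 5.37 and 4.99 in remaining basal cells. Outside this population it read 2.53, 2.64 and 2.85 (CD34+), 2.78, 4.78 and 3.77 (Gata6+Itga6+) and 3.94, 2.93 and 1.89 (Gata6+Itga6−). Its difference was 2.12, SE 0.44, limma adjusted p = 0.0238. All remaining basal arrays were higher than the others, with Gata6+Itga6+ array 2 next. The calls of Fos and of the phosphatase Dusp1 were lost without any 1 of the 3 remaining basal arrays (limma adjusted p of 0.0537 to 0.114 for Fos and 0.0746 to 0.0935 for Dusp1), and that of Junb without remaining basal array 1 or 2 (limma adjusted p = 0.0620 and 0.102). That of Jund was lost without remaining basal array 1, 2 or 3, CD34+ array 2 or 3 or Gata6+Itga6− array 2 (limma adjusted p = 0.0828, 0.143, 0.1, 0.0581, 0.0587 and 0.0604), that of Atf3 without remaining basal array 1, 2 or 3, CD34+ array 3 or Gata6+Itga6− array 2 or 3 (limma adjusted p = 0.0813, 0.138, 0.0826, 0.0532, 0.0518 and 0.0560), that of Zfp36 without remaining basal array 1 or 2 or Gata6+Itga6− array 2 or 3 (limma adjusted p = 0.0592, 0.148, 0.0537 and 0.0548), and that of Egr2 without remaining basal array 1 or 3, CD34+ array 3, Gata6+Itga6+ array 1, 2 or 3 or Gata6+Itga6− array 1, 2 or 3 (0.0682 to 0.197). Nr4a1, a nuclear receptor, kept its call in all 12 such fits (1.38, SE 0.21, limma adjusted p = 0.00518). With array brightness as a covariate 1 of the 22 was called higher and 0 lower, and after quantile normalization 8 and 0. The part of this response in the other differences was not tested.

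Among the genes lower than in each other population, Cd200 differed most from its nearest population. Cd200, a surface glycoprotein of follicle keratinocytes that restrains myeloid cells, was at 2.24, 1.97 and 2.78 in remaining basal cells. CD34+ cells had 7.91, 7.21 and 7.45, Gata6+Itga6+ cells 5.85, 7.07 and 6.76 and Gata6+Itga6− cells 7.37, 7.72 and 7.43. Cd200 was at least 17.6-fold lower than in each other population (−4.87, SE 0.26, limma adjusted p = 5.46e-06), and the remaining basal arrays averaged under the level of silent genes. All 7 probe sets were lower than in each other population. Cgnl1, a junction protein related to cingulin, was at 1.99, 2.11 and 2.12 in remaining basal cells. The other arrays gave 5.67, 6.15 and 6.42 (CD34+), 6.30, 5.57 and 5.59 (Gata6+Itga6+) and 5.79, 6.50 and 5.92 (Gata6+Itga6−). The other 9 arrays were close together, and Cgnl1 was at least 10.52-fold lower in remaining basal cells (−3.92, SE 0.21, limma adjusted p = 5.46e-06); its brightest probe set, taken alone, gave a difference of 0.04, with the opposite sign. Of its 20 probe sets, 19 were lower than in each other population.

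Cldn8, a claudin of tight junctions, was at 2.24, 1.73 and 1.80 in remaining basal cells. Levels in CD34+ cells were 3.11, 5.33 and 4.82, those in Gata6+Itga6+ cells 5.67, 5.84 and 6.52 and those in Gata6+Itga6− cells 4.83, 5.89 and 4.92. It was at least 3.99-fold lower (−3.29, SE 0.42, limma adjusted p = 0.00155), and its call was lost without remaining basal array 2 or 3 or CD34+ array 2 or 3 (limma adjusted p = 0.0714, 0.0542, 0.0606 and 0.0759). Itgb8, an integrin chain that activates TGF-beta, was at least 4.30-fold lower (−2.53, SE 0.20, limma adjusted p = 6.98e-05), with all 16 probe sets lower; its brightest probe set alone was not called (−2.70, limma adjusted p = 0.0992). Adgrl3, an adhesion receptor of the latrophilin family, was at 2.06, 2.09 and 2.44 in remaining basal cells. Among the others, CD34+ cells were at 5.15, 4.55 and 5.31, Gata6+Itga6+ cells at 6.03, 5.74 and 5.66 and Gata6+Itga6− cells at 5.61, 6.45 and 6.16. This was at least 5.97-fold lower (−3.43, SE 0.20, limma adjusted p = 9.47e-06). Ptprk, a receptor tyrosine phosphatase, was at least 4.66-fold lower (−3.31, SE 0.28, limma adjusted p = 9.06e-05), with 37 of 40 probe sets lower. For each of these 4 genes the remaining basal arrays lay below all others.

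Transcription factors of the follicle were among the 50. Lhx2, a LIM homeodomain factor of follicle stem cells, was at 2.81, 2.30 and 2.61 in remaining basal cells. The CD34+ arrays read 8.24, 8.25 and 8.75, the Gata6+Itga6+ arrays 5.26, 5.08 and 5.14 and the Gata6+Itga6− arrays 5.68, 5.88 and 5.46. CD34+ cells had the highest arrays, both Gata6+ populations intermediate ones, and remaining basal cells were 6.002-fold lower than Gata6+Itga6+ cells, with a difference of −3.84, SE 0.15, limma adjusted p = 9.51e-07. Nfatc1, which keeps bulge stem cells quiescent, averaged 2.62 ± 0.23 in remaining basal cells, against 4.72 ± 0.47 (CD34+), 4.27 ± 0.31 (Gata6+Itga6+) and 4.27 ± 0.40 (Gata6+Itga6−), and was 3.14-fold lower (−1.80, SE 0.22, limma adjusted p = 0.00129; lost without remaining basal array 1 or 2 or Gata6+Itga6+ array 1, limma adjusted p = 0.0646, 0.0808 and 0.0661). Foxp1, a forkhead factor, averaged 3.14 ± 0.43 in remaining basal cells, against 5.88 ± 0.26 (CD34+), 4.68 ± 0.14 (Gata6+Itga6+) and 5.46 ± 0.25 (Gata6+Itga6−) and was 2.90-fold lower (−2.20, SE 0.18, limma adjusted p = 8.33e-05); with the brightest probe set its difference was −0.13 and it was not called (limma adjusted p = 0.819). With Cd200 and Fst, Lhx2 and Nfatc1 are the 4 genes of the bulge list that were lower than in each other population, both Gata6+ populations included. Vdr, the vitamin D receptor, was 4.08-fold lower (−2.17, SE 0.31, limma adjusted p = 0.00297; lost without remaining basal array 1 or 2 or Gata6+Itga6+ array 1 or 3, limma adjusted p = 0.0541, 0.0531, 0.0553 and 0.0534).

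Secreted proteins included Fst, which binds activin, at 3.97, 3.55 and 4.23 in remaining basal cells. For comparison, CD34+ arrays stood at 7.59, 7.95 and 7.73, Gata6+Itga6+ arrays at 7.83, 7.62 and 7.49 and Gata6+Itga6− arrays at 6.45, 6.29 and 6.73. Its levels in CD34+ and Gata6+Itga6+ arrays overlapped, and it was 5.96-fold lower in remaining basal cells than in Gata6+Itga6− cells, the nearest (−3.38, SE 0.15, limma adjusted p = 2.28e-06). Timp2, an inhibitor of metalloproteinases, was at 1.99, 1.53 and 2.16 in remaining basal cells. The values were 6.22, 5.68 and 6.53 for CD34+ cells, 4.03, 4.30 and 4.52 for Gata6+Itga6+ cells and 6.24, 5.24 and 5.75 for Gata6+Itga6− cells. Timp2 was at least 3.63-fold lower, with no overlap (−3.50, SE 0.24, limma adjusted p = 2.25e-05). Ptn, the growth factor pleiotrophin, was at 3.46, 4.26 and 4.58 in remaining basal cells. Outside this population it read 8.66, 8.79 and 8.75 (CD34+), 7.95, 7.49 and 7.62 (Gata6+Itga6+) and 5.71, 6.62 and 6.42 (Gata6+Itga6−). Its arrays ran from high to low in the order CD34+, Gata6+Itga6+, Gata6+Itga6−, remaining basal, without overlap, and it was 4.43-fold lower than in Gata6+Itga6− cells (−3.46, SE 0.24, limma adjusted p = 2.58e-05). Sema3e, a semaphorin, averaged 1.88 ± 0.14 in remaining basal cells, against 6.96 ± 0.36 (CD34+), 3.89 ± 0.13 (Gata6+Itga6+) and 3.03 ± 0.22 (Gata6+Itga6−) and was at least 1.52-fold lower (−2.75, SE 0.15, limma adjusted p = 5.46e-06). Ptn, Sema3e, Foxp1 and Vdr were picked after their values were seen.

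Ndrg2, a protein tied to differentiation and stress, was at 3.83, 2.66 and 3.72 in remaining basal cells. CD34+ cells had 7.33, 7.66 and 7.70, Gata6+Itga6+ cells 6.60, 6.08 and 6.74 and Gata6+Itga6− cells 7.59, 8.22 and 8.12. It was 8.39-fold lower (−3.93, SE 0.25, limma adjusted p = 1.83e-05), and remaining basal array 2 was the lowest array. Cryab, a small heat shock protein, was at least 6.36-fold lower (−3.05, SE 0.23, limma adjusted p = 4.64e-05), Capn2, a calpain protease, at least 4.90-fold lower (−3.20, SE 0.21, limma adjusted p = 2.15e-05), and Usp54, of the ubiquitin protease family, 5.21-fold lower (−3.12, SE 0.18, limma adjusted p = 8.02e-06), with all 27 probe sets lower. Cyp1b1, a cytochrome P450 of retinoid and xenobiotic metabolism, was at 2.22, 2.39 and 1.70 in remaining basal cells. The other arrays gave 3.74, 4.95 and 5.35 (CD34+), 5.65, 3.83 and 4.68 (Gata6+Itga6+) and 5.34, 5.23 and 4.04 (Gata6+Itga6−). It was at least 4.77-fold lower (−2.65, SE 0.44, limma adjusted p = 0.00779), and CD34+ array 1, Gata6+Itga6+ array 2 and Gata6+Itga6− array 3 were the lowest of the other arrays. Its call against each was lost in 9 of 12 fits that left out an array, namely without remaining basal array 1, 2 or 3, CD34+ array 2 or 3, Gata6+Itga6+ array 1 or 3 or Gata6+Itga6− array 1 or 2, with a largest limma adjusted p of 0.0691 to 0.154.

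Among further genes of the 50, picked after their values were seen, were Enpp1, an ectonucleotidase, at least 2.87-fold lower (−3.17, SE 0.20, limma adjusted p = 1.83e-05), Efnb2, an ephrin ligand (−2.33, SE 0.22, limma adjusted p = 0.000220), Lgr4, a receptor for R-spondins (−2.56, SE 0.23, limma adjusted p = 0.000151), and Aqp3, a water and glycerol channel of keratinocytes (−2.64, SE 0.20, limma adjusted p = 4.39e-05). Aqp3 averaged 3.14 ± 0.35 in remaining basal cells, against 6.65 ± 0.46 (CD34+), 5.60 ± 0.25 (Gata6+Itga6+) and 5.08 ± 0.040 (Gata6+Itga6−), and Lgr4 2.85 ± 0.34 in remaining basal cells, against 6.13 ± 0.27 (CD34+), 5.41 ± 0.15 (Gata6+Itga6+) and 4.68 ± 0.59 (Gata6+Itga6−). Gstm5, a glutathione transferase, averaged 4.61 ± 0.17 in remaining basal cells, against 6.49 ± 0.59 (CD34+), 8.07 ± 0.16 (Gata6+Itga6+) and 8.53 ± 0.27 (Gata6+Itga6−) (−3.09, SE 0.21, limma adjusted p = 2.32e-05). These 5 kept their calls against each population in all 12 fits that left out an array, but with the brightest probe set Aqp3 (−0.65, limma adjusted p = 0.178) and Enpp1 (−0.97, limma adjusted p = 0.0742) were not called against the mean of the others. Of the 50 genes, all had every other population mean over the level of silent genes, and the remaining basal mean lay under it for 19.

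**Figure D3:**
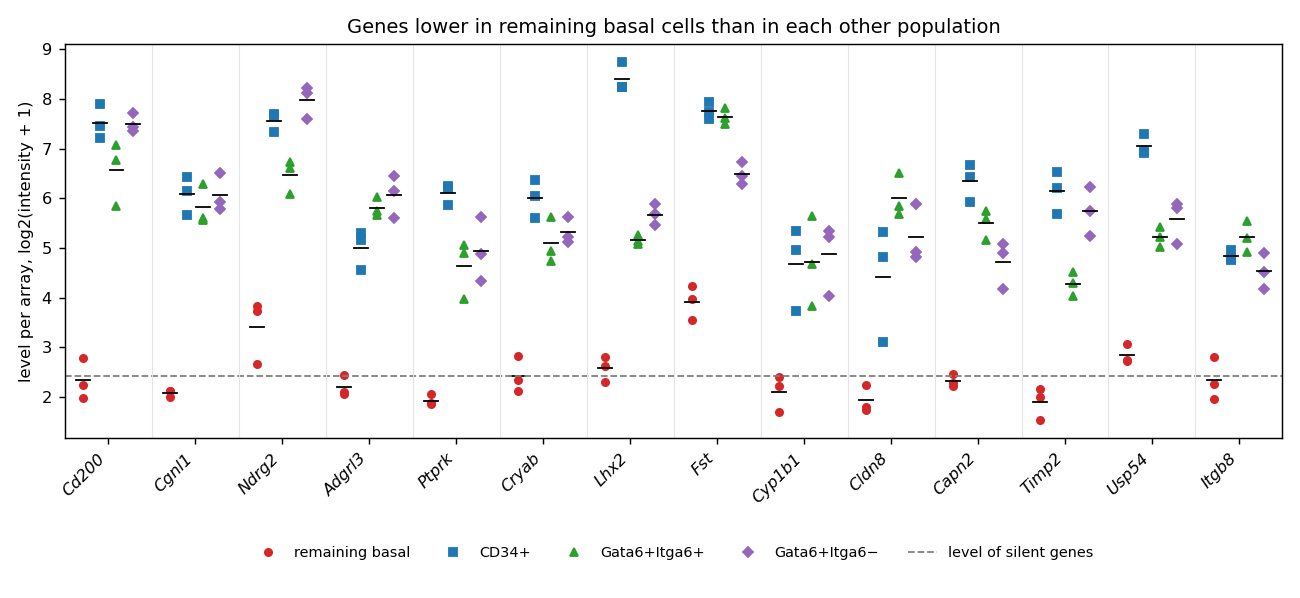
Level per array, log2(intensity + 1), of the 14 leading genes that were lower in remaining basal cells than in each other population, with bars at the means of 3 arrays and the level of silent genes (2.42) dashed. Remaining basal arrays lie below all others in each gene; Lhx2 and Usp54 were highest in CD34+ cells, while Cgnl1 was level across the 3 other populations.

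The threshold cut through a graded range. Just inside, with the largest limma adjusted p of the 3 comparisons, were Gdnf (0.0493), Chit1 (0.0452), Cyp1b1 (0.0497) and Fhdc1 (0.0411). Just outside were Adamtsl5 (0.0506), Abcc5 (0.0553), Creg1 (0.0564) and Dmkn (0.0581). Under the brightest probe set Gdnf (0.049, limma adjusted p = 0.947) and Chit1 (0.87, limma adjusted p = 0.125) were not called against the mean of the others.

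Adhesion and growth genes added smaller counts against the mean of the others, where 1.31% of all genes were higher and 2.38% lower. Of 21 hemidesmosome and basement membrane genes, 3 were higher and 0 lower against the mean of the others, with a median difference of 0.05: Itga6 itself, the collagen-binding integrin Itga2 (1.101, SE 0.16, limma adjusted p = 0.00375) and the laminin chain Lama3 (0.71, SE 0.08, limma adjusted p = 0.000779). Of 28 cell cycle genes, 4 were higher and 0 lower, with a median difference of 0.34. Higher than in CD34+ cells were 8 and than in Gata6+Itga6− cells 10, where 1.67% and 2.15% of all genes were. Against Gata6+Itga6+ cells 0 were higher and 1 lower, where 0.286% and 1.07% of all genes were. The summed intensity of the list was 164 to 297 in remaining basal arrays, against 82.6 to 101 in CD34+, 267 to 335 in Gata6+Itga6+ and 74.3 to 85.1 in Gata6+Itga6− arrays. The replication helicase subunit Mcm6 had a difference of 1.25, SE 0.20, limma adjusted p = 0.00529, and its calls and those of Ccna2, Mcm3 and Mcm4 make up the 4. The calls of Mcm3 and Mcm4 were each lost in 11 of 12 fits that left out an array (limma adjusted p of 0.0505 to 0.204), the exceptions being Gata6+Itga6+ array 3 for Mcm3 and remaining basal array 1 for Mcm4, and that of Ccna2 without remaining basal array 1 or 3 (limma adjusted p = 0.0778 and 0.0584). Mki67, a proliferation marker, was not called (difference 0.82, limma adjusted p = 0.129).

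For the lists that follow, too, 1.31% of all genes were called higher and 2.38% lower against the mean of the others. Single calls in such short lists say little about a family. Of 20 IGF binding and EGF family genes, 2 were higher, Epgn and the binding protein Igfbp3 (lost without remaining basal array 1, limma adjusted p = 0.0519). Lower were 0, with a median difference of −0.21. Of 12 metallothionein and zinc transport genes, 3 were higher, Mt1, Mt2 and Mt4 (Mt4 lost without remaining basal array 1 or 3, Gata6+Itga6+ array 2 or Gata6+Itga6− array 2, limma adjusted p = 0.119, 0.0995, 0.0509 and 0.0519), with a median of 0.02. Of 18 Notch genes, the ligand Jag2 was higher and the receptor Notch2 lower, with a median of −0.0029. Jag2 was lost without remaining basal array 1 or 3, CD34+ array 1 or 3, Gata6+Itga6+ array 1 or 2 or Gata6+Itga6− array 1 or 3 (limma adjusted p of 0.0592 to 0.193), and Notch2 without remaining basal array 2 or 3 (limma adjusted p = 0.0660 and 0.0548). Of 12 Hedgehog genes, 0 were higher and 2 lower, the transcription factor Gli2 (lost without remaining basal array 1, 2 or 3, CD34+ array 2, Gata6+Itga6+ array 1 or 2 or Gata6+Itga6− array 1, limma adjusted p = 0.0913, 0.0911, 0.0977, 0.0503, 0.0505, 0.0508 and 0.0537) and the co-receptor Boc, with a median of −0.32.

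The counts below stand beside the same shares of all genes, 1.31% higher and 2.38% lower, and single calls again say little. Of 18 sebaceous gland genes, 1 was higher, the desaturase Scd1, and 3 lower, with a median of −0.02. The lower ones were Mgst1, the lipid droplet protein Plin2 (lost without remaining basal array 2 or 3, limma adjusted p = 0.112 and 0.0734) and the repressor Prdm1 (lost without remaining basal array 1, 2 or 3, Gata6+Itga6+ array 1 or 3 or Gata6+Itga6− array 1, limma adjusted p = 0.112, 0.157, 0.0593, 0.0530, 0.0572 and 0.0562). Of 21 chemokine genes 1 was higher, the scavenging receptor Ackr2 (lost without remaining basal array 1 or 3, CD34+ array 1 or 3 or Gata6+Itga6− array 1, 2 or 3, limma adjusted p = 0.102, 0.103, 0.0563, 0.0582, 0.0596, 0.0534 and 0.0612), and of 24 interferon response genes 1 was higher, Ifitm3 (lost without remaining basal array 1, 2 or 3, CD34+ array 1 or 3, Gata6+Itga6+ array 1, 2 or 3 or Gata6+Itga6− array 1, limma adjusted p of 0.0530 to 0.180), with medians of 0.03 and 0.04. Of 24 antimicrobial genes 0 were higher and 2 lower, Defb6 and the peptidoglycan recognition protein Pglyrp3, with a median of −0.02; the call of Pglyrp3 was lost without any single array other than Gata6+Itga6+ array 3 (0.0508 to 0.186).

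With the brightest probe set alone, further genes named above from the lists were not called against the mean of the others. Among the higher ones these were Krt5, Mt2, Mt4, Scd1, Itga6, Itga2, Lama3, Ackr2, Ifitm3, Fos, Zfp36, Mcm4, Mcm6, Ccna2, Il6ra, Il13ra1, Wnt10a and Tgfbr3. Among the lower ones they were Plin2, Prdm1, Mgst1, Col6a1, Notch2, Gli2, Hk2, Ltbp1, Krt24, Grhl3 and Egr2. Jag2, Fn1, Junb and Jund, reported as higher, and Lgr5, Col6a2, Ltbp2, Boc and Pglyrp3, reported as lower, had differences of the opposite sign, none of them called.

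**Figure D4:**
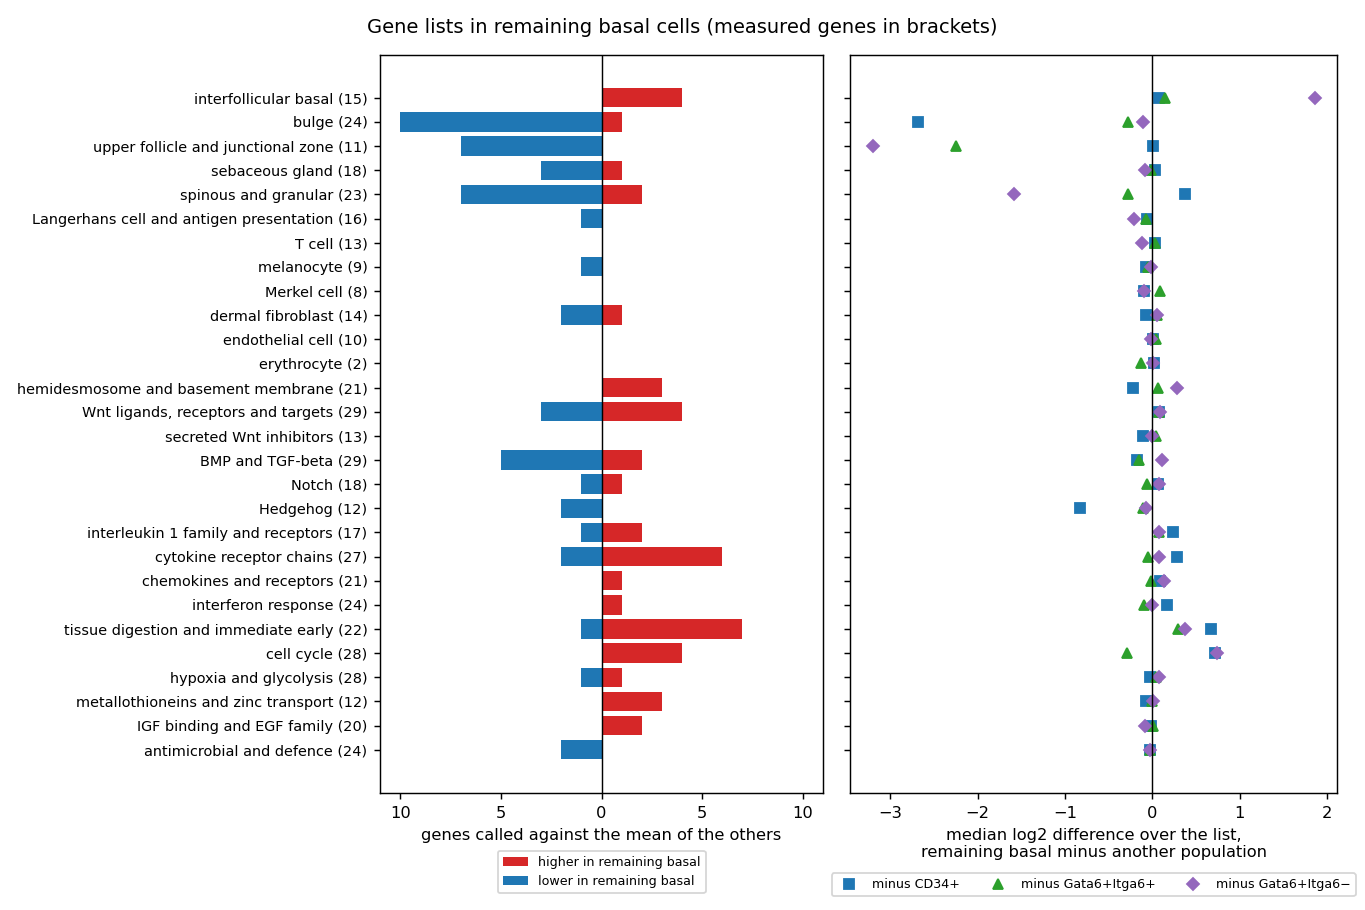
Left, genes of each list called higher (right of 0) or lower (left of 0) in remaining basal cells against the mean of the other populations; right, the median log2 difference of the list from each population. The bulge list holds 10 lower genes and its median is lowest against CD34+ cells, whereas the upper follicle list is lowest against both Gata6+ populations.

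The direction of the comparison partners differed among genes that were not called against all 3. Called higher against CD34+ and Gata6+Itga6− cells but not against Gata6+Itga6+ cells were 118 genes, while 1 was called higher against CD34+ and Gata6+Itga6+ cells but not the third population and 14 against both Gata6+ populations but not CD34+ cells. Called lower against both Gata6+ populations but not CD34+ cells were 78 genes, against 41 lower than CD34+ and Gata6+Itga6− cells alone and 23 lower than CD34+ and Gata6+Itga6+ cells alone. Of all 17853 genes, only 51 (0.286%) were called higher than in Gata6+Itga6+ cells, against 299 (1.67%) for CD34+ and 384 (2.15%) for Gata6+Itga6− cells. Called lower were 191 (1.07%), 593 (3.32%) and 529 (2.96%) in the same order. Not being called against Gata6+Itga6+ cells was thus usual, and the 118 genes do not show equal levels there. Whether these counts differ from each other was not tested.

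**Figure D5:**
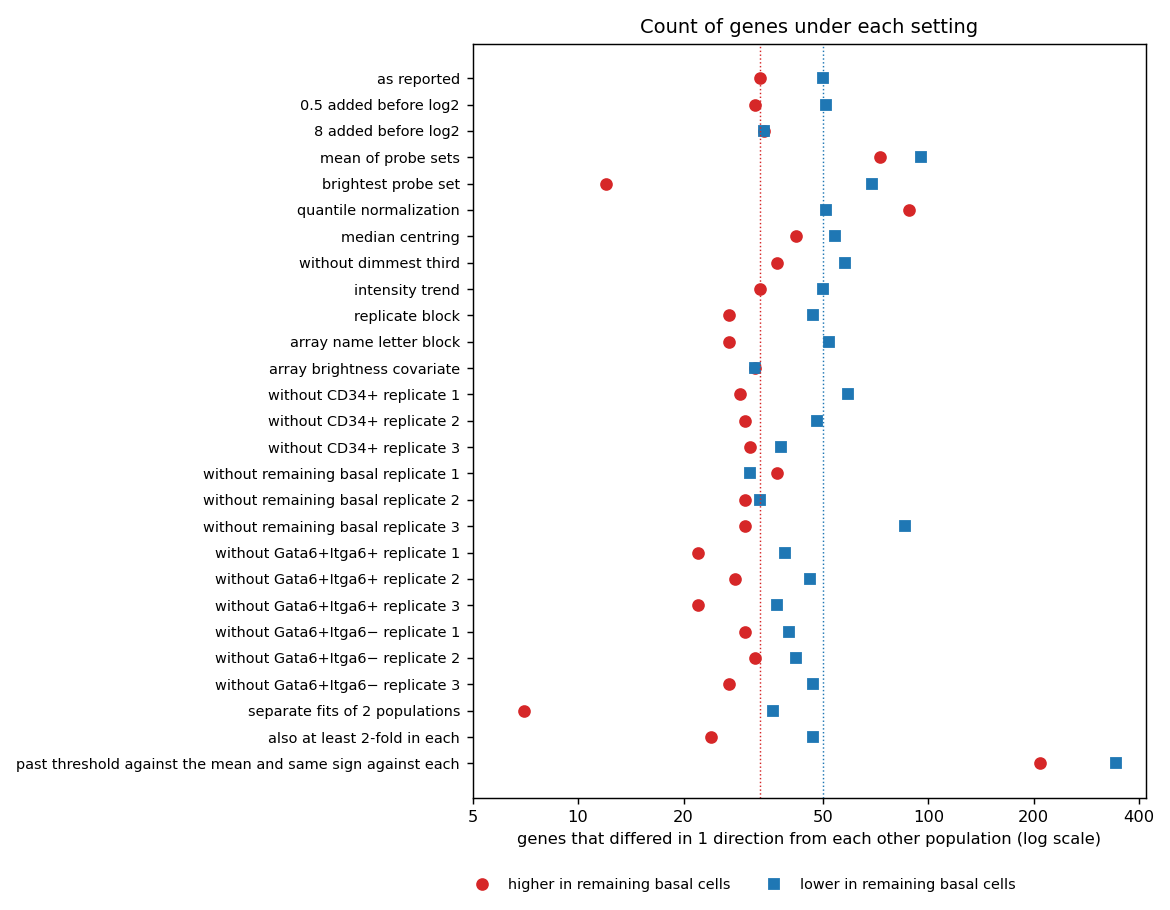
Genes higher (circles) and lower (squares) in remaining basal cells than in each other population under each setting, on a log axis, with dotted lines at the reported counts of 33 and 50. The count of higher genes lay between 7 with separate fits of 2 populations and 208 with a threshold on the mean and the same sign in each, and the lower count between 31 and 344.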

How the data were processed

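RNA was measured on Affymetrix mouse exon arrays after amplification, per the labels' protocols. The deposited values are intensities on a scale read here as linear; RMA, Affymetrix Power Tools and build mm9 are named in the submitters' processing notes, with no versions given in the sources used here. Of 235932 probe sets, 221205 had 1 gene symbol in the platform annotation, 1684 several and 13043 none. A gene was the median of log2(intensity + 1) over its probe sets with 1 symbol, giving 17853 genes, 959 of them with 1 probe set; 2489 symbols were updated through RefSeq.

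Limma 3.58.1 in R 4.3.3 was fitted with 1 mean per population on all 12 arrays, checked on simulated data first. There, log2 changes of 0.5, 1, 2 and 3 were planted in 50 genes each. The call against each population recovered 0%, 10%, 54% and 84% of them, and the call against the mean 4%, 32%, 86% and 96%. A gene that was not called may therefore still differ. The planted genes had mean levels over 3, and the 3 other populations were simulated with equal means. Recovery in dimmer genes, or where the other populations differ, was not simulated. Adjusted p-values are over all genes. The genes named were the sort genes, the leading 16 higher and 14 lower genes by smallest difference, up to 4 genes a list and a set of keratinocyte markers, with additions said to be picked later. Members and lists were chosen with earlier results of these data known. Members of the lists beyond the leading 4 were also named after their values were seen. Replicate numbers were checked for pairing: same-numbered arrays correlated at −0.144 to 0.279 in their deviations (median 0.009, 5 of 18 pairs over 0.1). Arrays with the same name letter correlated at −0.168 to 0.279 (median 0.047, 5 of 18 pairs over 0.1). Neither was taken to pair arrays, and the labels do not say what the letter marks. The number of arrays limits the precision. Alternatives were other summaries of probe sets, normalizations, pseudocounts, filters, blocks and single arrays left out.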

Additional observations from a re-analysis of the deposited data

How the results depend on the processing

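Against the mean of the others, 234 genes were higher and 425 lower in remaining basal cells as reported, and 33 and 50 differed from each population. With the mean of probe sets the 4 counts were 377, 763, 73 and 95, the last pair sharing 28 and 48 genes with those reported. With the brightest probe set, 12 genes were higher than in each population (4 shared), and quantile normalization gave 437 higher against the mean, and 88 higher and 51 lower against each. With array brightness as a covariate, chosen after the data were seen, 279 were lower against the mean and 32 against each. Separate fits of 2 populations gave 7 genes higher than in each, and a threshold on the mean with the same sign in each gave 208 higher and 344 lower. With single arrays left out, counts ranged over 154 to 204 higher and 221 to 480 lower against the mean, and 22 to 37 higher and 31 to 86 lower against each. The replicate block gave 215, 409, 27 and 47, and the array letter as a block 205, 412, 27 and 52. Among named genes called as reported or with the brightest probe set, 13 turned sign with that probe set. They were Cgnl1 to 0.037, Jag2 to −0.23, Lgr5 to 0.10, Krt20 to −0.79, Col6a2 to 0.026, Fn1 to −0.0054 and Ltbp2 to 0.39. The others were Boc to 0.26, Junb to −0.47, Pglyrp3 to 0.67, Cdh4 to −0.018, Reep1 to −0.13 and Jund to −0.42. Named genes called in neither setting also turned sign in places, such as Dcn from −0.08 to 0.41, and are not in this count. Of 153 called among 214 named genes, 74 kept the call in every setting run. The cause of these shifts was not tested. Genes under the level of silent genes have only a bound.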

Other observations

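Several genes stood apart from the mean of the other populations without differing from each, and the following were picked after their values were seen. Antxr1, an anthrax toxin receptor that binds collagen, averaged 7.19 ± 0.34 in remaining basal cells, against 5.63 ± 1.13 (CD34+), 4.17 ± 0.13 (Gata6+Itga6+) and 2.01 ± 0.16 (Gata6+Itga6−) (SD, n = 3 each; difference 3.25, limma adjusted p = 0.000568); against CD34+ cells the limma adjusted p was 0.0795. Htra1, a secreted serine protease, averaged 6.25 in remaining basal cells, against 3.42 (CD34+), 5.49 (Gata6+Itga6+) and 2.21 (Gata6+Itga6−), and was not called against Gata6+Itga6+ cells (limma adjusted p = 0.376).

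Crabp2, a retinoic acid binding protein, averaged 2.89 in remaining basal cells, against 2.93 (CD34+), 6.33 (Gata6+Itga6+) and 8.73 (Gata6+Itga6−). S100a4, a calcium-binding protein, averaged 2.22 in remaining basal cells, against 8.82 (CD34+), 2.86 (Gata6+Itga6+) and 2.46 (Gata6+Itga6−), so its difference from the mean of the others (−2.49, limma adjusted p = 0.000627) lay with CD34+ cells. Nt5e, the ectoenzyme CD73, averaged 1.82 in remaining basal cells, against 6.44 (CD34+), 4.85 (Gata6+Itga6+) and 3.25 (Gata6+Itga6−), with a limma adjusted p of 0.0608 against the last.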
